A study of Caenorhabditis elegans with 6 samples.

Results

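The col- genes are the largest family of Caenorhabditis elegans collagens, and most of them code for collagens of the cuticle, the outer coat of the worm. They were taken by name, as every gene whose deposited name starts with col- and that has a value. Of 159 such genes 156 had values, out of 45729 genes with values in all, and the 3 others, col-66, col-136 and col-182, are pseudogenes in RefSeq and hold no value. RNA from entire worms of N2, the reference wild-type strain, was sequenced in 3 libraries from worms given D-mannose and 3 libraries from worms given water. Both groups are labelled as 6 days old and were grown on plates with the OP50 strain of Escherichia coli, and no other allele or agent is named. The design asks which transcripts differ when the hexose D-mannose is supplied. The labels do not say whether the age is counted from hatching or from adulthood, what dose was used, or whether the libraries of a group came from separate cultures, so p-values measure the spread between these libraries, which may be technical.

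The cuticle is made by the hypodermis, the skin of the worm, and is built anew at each larval moult and once more for the adult. Its collagens are short proteins with interrupted Gly-X-Y repeats that wind into triple helices in the endoplasmic reticulum, where prolyl 4-hydroxylases such as DPY-18 and PHY-2 modify them, and that are trimmed by proteases and cross-linked outside the cell. Different sets of col- genes are read at different stages, and some, of which col-19 is the best known, serve as reporters of the adult stage. Several col- genes have been linked to ageing, since their transcripts decline with age and extra copies of some prolong life.

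Values are FPKM, fragments scaled to gene length (as listed) and to an effective library size, so levels of different genes can be set side by side. The value of a single read in a 1 kb gene lay between 0.0202 and 0.0263 FPKM. It follows the effective library size, not the summed read equivalents, which ran from 39892258 to 46041030 a library. A read gave more FPKM in mannose 1 (0.0263) and water 3 (0.0259) than in the other libraries (0.0202 to 0.0240), although water 3 had the most read equivalents. Genes with at least 1 FPKM in at least 3 libraries were tested with limma on log2(FPKM + 1), 11237 in all, of which 94 were col- genes. At a Benjamini-Hochberg adjusted p of 0.05 limma called 0 genes of the whole table. Principal component 1, with 67.2% of the variance, placed mannose 1 (score -41.7) and water 3 (-48.2) apart from the other 4 libraries (7.68 to 33.0), so these libraries stand apart across the treatment groups. The 13 oocyte and eggshell genes marked the same libraries, with summed levels of 6227, 3404 and 1844 FPKM in mannose libraries, against 1992, 2553 and 6576 FPKM in water libraries. Genes that define the hypodermis were mostly low. The highest of the 11 listed was lin-26, a hypodermal transcription factor, at 26.9 to 37.8 FPKM in mannose libraries and 18.9 to 33.9 FPKM in water libraries. Another, elt-3, had 4.83 to 6.33 FPKM in mannose libraries and 3.92 to 5.24 FPKM in water libraries. The genes nhr-25, grh-1 and che-14 stayed under 1 FPKM in every library and were not tested.

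The col- genes were lower in mannose libraries almost throughout, by small amounts, and no single one passed the test. Their summed level was 37473, 33027 and 38264 FPKM in mannose libraries, against 45906, 47141 and 54790 FPKM in water libraries. The 2 groups did not overlap, and the mean of the mannose libraries, 36254 ± 2823 FPKM, was 0.736 times that of the water libraries, 49279 ± 4813 FPKM (SD, n = 3 each). As a share of all FPKM the col- genes took 3.90%, 3.81% and 4.56% in mannose libraries, against 5.26%, 5.36% and 5.21% in water libraries, again without overlap. In whole-worm RNA, fewer cells of a type and less RNA per cell cannot be told apart.

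Under limma with Benjamini-Hochberg adjustment, 0 of the 94 tested col- genes were called, beside 0% of all genes tested, and each had an adjusted p of 0.9999. At an unadjusted p under 0.05, 37 were lower in mannose libraries, 39.4% of the tested members beside 2.7% of all genes tested, and 0 were higher, beside 2.04% of all genes tested. The libraries of the groups did not overlap, with mannose lower, for 45 members, or 47.9% beside 5.31% of all genes tested, and with mannose higher for 0 members beside 5.42%. The log2 difference, mannose minus water, was below 0 in 89 of 94 members, 94.7% beside 45.5% of all genes tested. Its median was -0.51 over the members and 0.01 over all genes tested. These values leaned on single libraries: without water 3 the median was -0.29 and 21 members had an unadjusted p under 0.05, and without mannose 2 the median was -0.45 and 15 members did, beside 1.25% of all genes tested. When the fit held a term for the libraries that stand apart, mannose 1 and water 3, 53 members were lower at an unadjusted p under 0.05, beside 6.05% of all genes tested. The lowest limma adjusted p of a member was then 0.214, so 0 were called there too. The filter on low values kept members by their level in any 3 libraries. Of the tested members 77 had at least 1 FPKM in all 6 libraries, of which 76 were lower in mannose libraries, and 1, col-109, passed the filter through the water libraries alone.

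The members spanned a wide range of levels. Over the mean of the 6 libraries, 14 genes lay at 1000 FPKM or more, 14 between 100 and 1000, 22 between 10 and 100, 47 between 1 and 10 and 51 above 0 but under 1 FPKM. The last 8 were listed at 0 in all 6 libraries, which allows a level of up to 0.0607 to 0.0790 FPKM in a gene of 1 kb if 3 reads are taken as the limit that a count of 0 allows; this covers counting error only. The 14 most abundant genes made up 79.9%, 83.1% and 81.9% of the summed col- FPKM in mannose libraries, and 81.2%, 78.8% and 78.0% in water libraries. A value of at least 1 FPKM was found for 86, 86 and 89 members in mannose libraries, and for 91, 91 and 97 in water libraries.

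**Figure D1:**
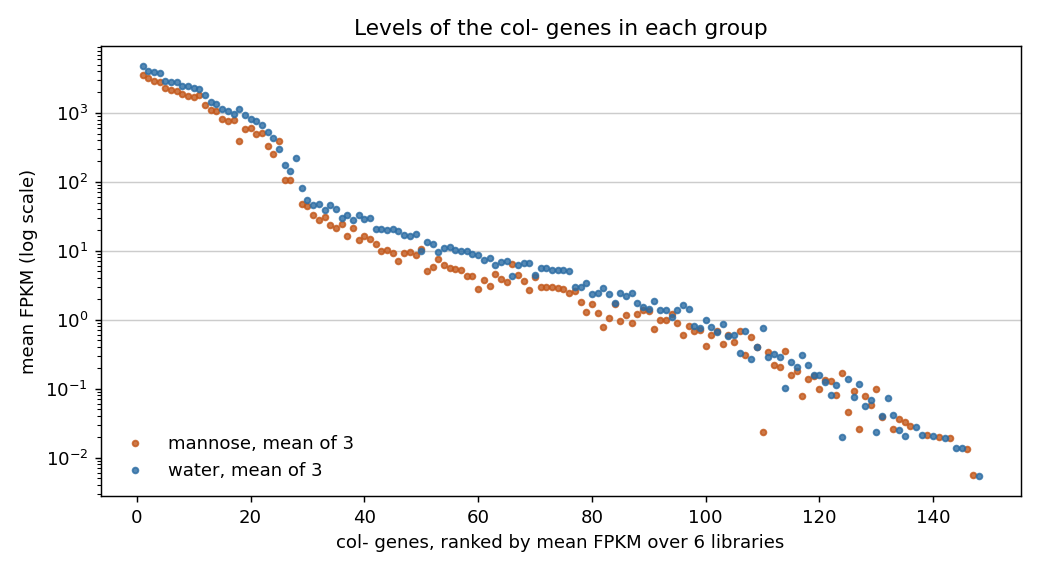
Mean FPKM of the col- genes (log axis) against their rank over all 6 libraries, with the mean of the 3 mannose libraries and of the 3 water libraries as separate points; grey lines mark 1, 10, 100 and 1000 FPKM, and means of 0 are not drawn. The mannose points lie below the water points for each of the 14 genes at 1000 FPKM or more.

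The leading col- genes kept the same order in every library. The first, col-140, had 3437, 3335 and 3976 FPKM in mannose libraries, against 4619, 4589 and 4969 FPKM in water libraries. The second, col-119, had 3279, 2910 and 3415 FPKM in mannose libraries, against 3971, 3812 and 4440 FPKM in water libraries. The third, col-124, had 3037, 2626 and 3102 FPKM in mannose libraries, against 3650, 3698 and 4430 FPKM in water libraries. In each of the 3 the highest mannose library lay below the lowest water library. The steps between these neighbours were small: within a library col-140 was 1.05 to 1.20 times col-119, and col-119 was 1.00 to 1.11 times col-124. The log2 difference was -0.40 (SE 0.11) for col-140, -0.35 (SE 0.11) for col-119 and -0.42 (SE 0.13) for col-124. Of these, col-140 had an unadjusted limma p of 0.00945, col-119 one of 0.0212 and col-124 one of 0.0143.

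The adult collagen gene col-19, which is switched on at the last moult through the transcription factor LIN-29, ranked between 5 and 6 within the family. It had 2410, 2081 and 2461 FPKM in mannose libraries, against 2789, 2713 and 3234 FPKM in water libraries, a log2 difference of -0.33 (SE 0.12). The groups did not overlap. Its neighbour in rank, col-178, was so close that col-19 was 0.995 to 1.13 times it, and this pair does not have a fixed order. The same holds for col-178 over col-181, at 0.933 to 1.07 times.

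The 10 genes at 1000 FPKM or more not yet described (col-20, col-178, col-181, col-106, col-122, col-80, col-8, col-184, col-143 and col-101) showed the same order of the groups. In all 14 genes of that class the 3 mannose libraries lay below the 3 water libraries. The ratio of group means ran narrowly, between 0.718 for col-80 and 0.821 for col-8, with a median of 0.7499. The gene col-8, whose log2 difference had the smallest SE of the 14 (0.09), had 1719, 1798 and 1879 FPKM in mannose libraries, against 2157, 2179 and 2236 FPKM in water libraries. Next in rank after col-124, col-20 had a log2 difference of -0.44 (SE 0.11). In col-178 the values were 2130, 2046 and 2181 FPKM in mannose libraries, against 2682, 2727 and 3099 FPKM in water libraries, a log2 difference of -0.42 (SE 0.10). In col-143 they were 1031, 1034 and 1185 FPKM in mannose libraries, against 1461, 1362 and 1543 FPKM in water libraries, a log2 difference of -0.43 (SE 0.11). Water 3 was the highest library in all 14, at 1.03 to 1.25 times the mean of water 1 and water 2. It was also the highest for 84 of all 132 genes tested at that level. Their median ratio was 1.25, beside 1.14 over the 14 col- genes. Among all 132 genes of the table with a mean of 1000 FPKM or more, the groups were without overlap and lower in mannose for 21, and 14 of these were the col- genes. The median log2 difference over those 132 genes was -0.12, beside -0.41 over the 14 col- genes. Without water 3 it was 0.04 over the 132 genes and -0.34 over the 14 col- genes, all of which were still lower in mannose libraries.

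**Figure D2:**
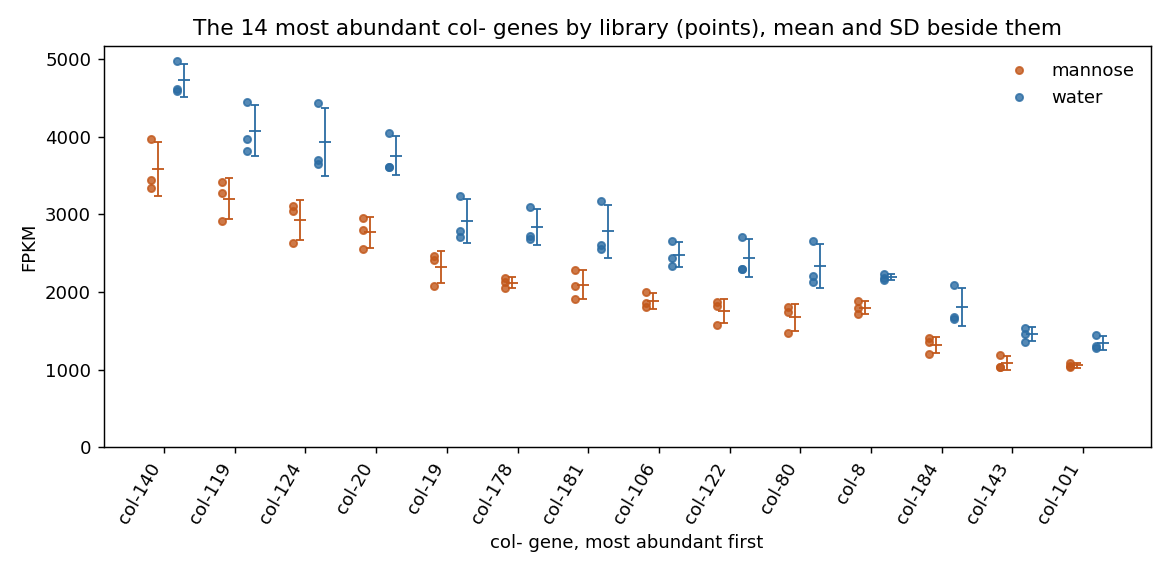
FPKM (linear axis) of the 14 most abundant col- genes, with 1 point for each mannose library (left) and each water library (right) and the mean with its SD beside them. In each gene the 3 mannose points lie below the 3 water points.

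Between 100 and 1000 FPKM, 12 of 13 tested members were lower in mannose libraries, 92.3% beside 58.7% of all genes tested at that level. Of the 13, 10 had groups without overlap, 76.9% beside 5.24%. Second by its p in this class, after col-92 described further on, col-142 had 271, 200 and 295 FPKM in mannose libraries, against 405, 386 and 499 FPKM in water libraries. Its log2 difference was -0.76 (SE 0.18), with an unadjusted limma p of 0.00549. For col-98 the values were 787, 694 and 776 FPKM in mannose libraries, against 949, 1026 and 1178 FPKM in water libraries, a log2 difference of -0.48 (SE 0.12). Of the members in this class, 9 were tested and had no expressed gene model overlapping them on their strand, and all 9 were lower, by -0.76 to -0.32 on the log2 scale. The exception with overlapping groups among the 9 was col-159, whose reads are described with those of col-160 further on.

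Below 100 FPKM the libraries differed in another way, and 1 library stood out. Of the 22 members between 10 and 100 FPKM, 20 were lower in mannose libraries, 90.9% beside 38.1% of all genes tested at that level. Their median log2 difference was -0.75. In 12 of the 22 the groups did not overlap, 54.5% beside 3.63% of all genes tested at that level. Of the 45 tested members between 1 and 10 FPKM, 43 were lower, 95.6% beside 47.7% of all genes tested at that level, with a median of -0.54. In 9 of the 45 the groups did not overlap, 20% beside 6.65% of all genes tested at that level. Water 3 was the highest of the 6 libraries for 84 of the 94 tested members, beside 23.3% of all genes tested. The ratio of water 3 to the mean of water 1 and water 2 had a median of 1.14 at 1000 FPKM or more, 1.26 at 100 to 1000, 1.94 at 10 to 100 and 2.42 at 1 to 10 FPKM. It reached 2 or more in 39 of the 94 members, 28 of them at 1 to 10 FPKM, beside 14.2% of all genes tested. Over all genes tested this ratio had a median of 1.00. By class, in the same order, it was 1.25, 0.955, 1.02 and 1.00 over all genes tested, so at 1000 FPKM or more the members did not exceed other genes. Mannose 1, which the first principal component placed beside water 3, did not share this excess: the members lay a median of 0.24 below their own mean in mannose 1 and 0.74 above it in water 3, on the log2 scale.

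**Figure D3:**
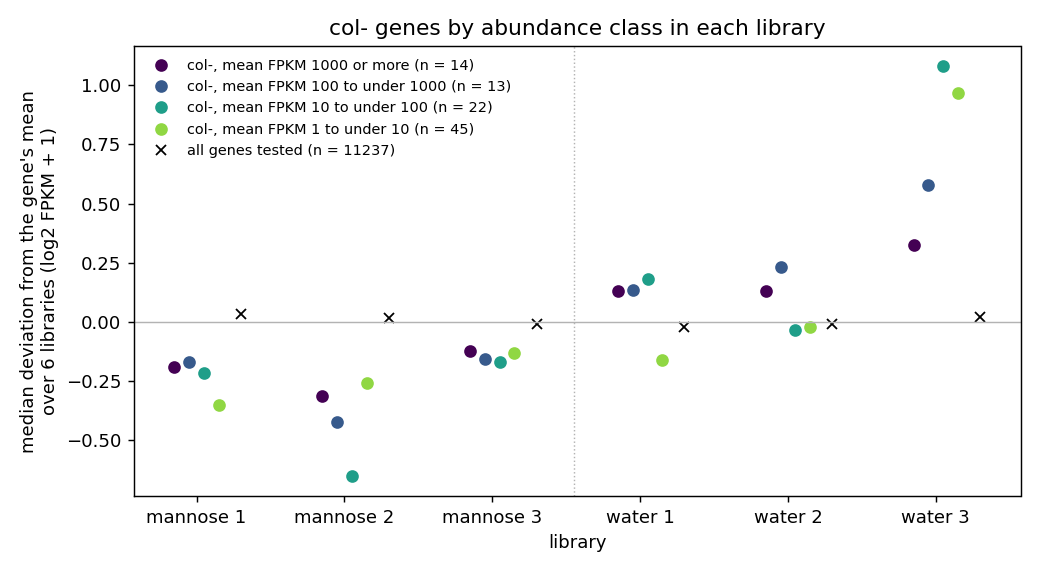
Median deviation of the tested col- genes from each gene's mean over the 6 libraries (log2 FPKM + 1), by library and abundance class, with all genes tested as crosses; mannose libraries are left of the dotted line and water libraries right of it. Each class lies below 0 in each mannose library, and the 2 lower classes are near 1 in water 3 but between -0.16 and 0.18 in water 1 and water 2.

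Without water 3, 78 of 94 members were lower in mannose libraries, beside 44.9% of all genes tested, and the median log2 difference was -0.29, beside 0.04 for all genes. At an unadjusted p under 0.05, 21 members were lower, or 22.3% beside 2.38% of all genes, and these 21 were also among the 37 found with all libraries. The shift left by water 3 differed with the level. The median log2 difference without it was -0.34 at 1000 FPKM or more, -0.50 at 100 to 1000, -0.45 at 10 to 100 and -0.15 at 1 to 10 FPKM. In the lowest of these classes 34 of 45 members were then lower.

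**Figure D4:**
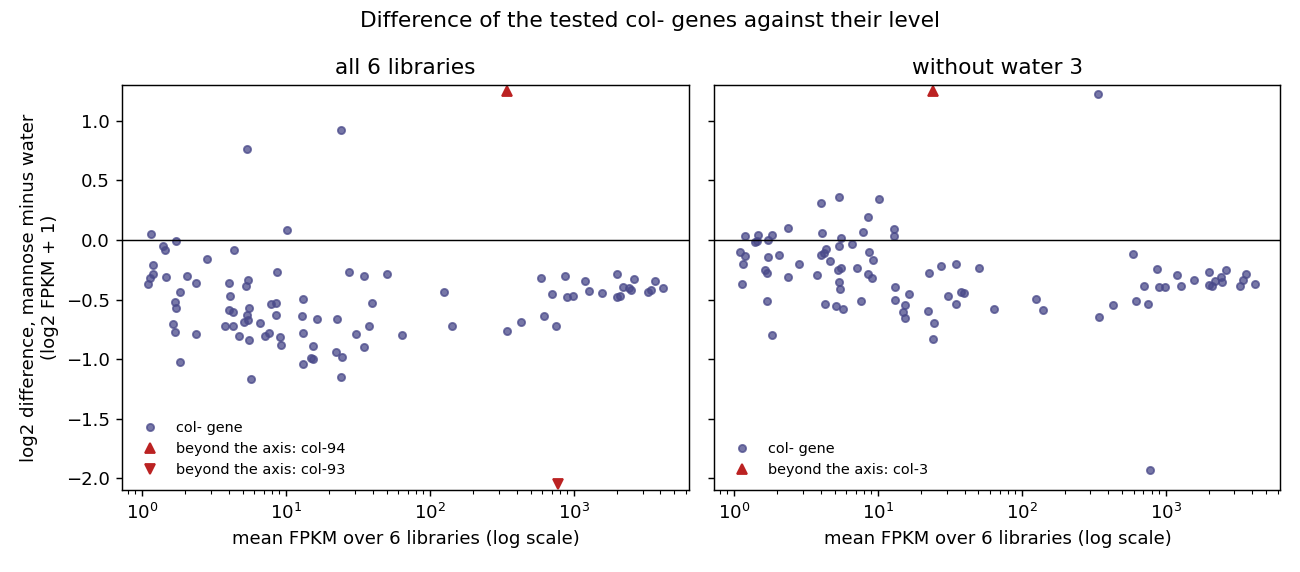
Log2 difference (mannose minus water) of the 94 tested col- genes against mean FPKM (log axis), from all 6 libraries (left) and without water 3 (right); red triangles mark genes beyond the vertical axis, namely col-93 and col-94, which overlap each other, in the left panel and col-3 in the right panel. At 1000 FPKM or more the 14 genes form a tight band below 0 in both panels, and below 10 FPKM the points lie nearer to 0 in the right panel.

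A few members show how the low classes behaved. The collagen gene col-14 had 3.04, 3.88 and 4.19 FPKM in mannose libraries, against 3.04, 4.33 and 14.7 FPKM in water libraries, so only water 3 was set apart. Its log2 difference of -0.58 (SE 0.51) became 0.01 without water 3. For col-120, which is linked to long life through extra copies, the values were 2.16, 2.92 and 3.50 FPKM in mannose libraries, against 1.82, 2.36 and 11.5 FPKM in water libraries. The log2 difference of col-120 was -0.36 (SE 0.58), and 0.31 without water 3. In col-34 the libraries were close, with 7.81, 6.95 and 8.21 FPKM in mannose libraries, against 7.77, 8.83 and 12.2 FPKM in water libraries, and the groups overlapped.

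The stage-specific members outside the abundant class were low. The adult gene col-7 had 14.5, 5.03 and 10.4 FPKM in mannose libraries, against 19.3, 11.7 and 32.0 FPKM in water libraries, with overlapping groups and a log2 difference of -0.998 (SE 0.477). Its neighbour col-62, on the other strand, followed it closely, with 19.5, 7.77 and 17.7 FPKM in mannose libraries, against 26.8, 17.5 and 44.8 FPKM in water libraries. In both genes mannose 2 was the lowest library and water 3 the highest. That combination was found in 47 of the 94 tested members, and its share over all genes tested was not computed. Taken singly, water 3 was the highest library in 84 members and mannose 2 the lowest in 49. Over all 11237 genes tested these counts were 2620 and 1364.

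The larval gene col-17, which LIN-29 keeps down in adults, had 0.652, 0.705 and 1.00 FPKM in mannose libraries, against 3.78, 1.02 and 3.90 FPKM in water libraries. Water 2 was close to the mannose libraries, while water 1 and water 3 were well above them. Its log2 difference of -1.02 (SE 0.36) had an unadjusted limma p of 0.0306, but the listed model of col-17 spans the far more abundant col-20 on the same strand, so reads of the pair cannot be told apart with confidence. The dauer gene col-2 was near the limit of detection, at 0 to 0.136 FPKM in mannose libraries and at 0.0716 to 0.188 FPKM in water libraries, and was not tested.

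Other members with a known role were low or uneven. The gene col-99 codes for a transmembrane collagen of neurons, not a cuticle collagen, and had 0.747, 0.705 and 0.609 FPKM in mannose libraries, against 0.678, 0.927 and 0.840 FPKM in water libraries. The groups overlapped, and the gene was below the filter. The gene col-41, a target of the BMP-like pathway that sets body size, had 2.19 FPKM in water 1 and at most 0.0938 FPKM in each of the other 5 libraries. On its opposite strand lies ucr-2.2, with a mean of 48.7 FPKM. The gene col-40 stayed at 0 to 0.250 FPKM in mannose libraries and at 0.0587 to 0.0980 FPKM in water libraries.

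Several col- genes have gene models that run over a neighbour on the same strand. At some of these loci, but not all, the reads switched between models from library to library. The listed span of 55 members differed from that in RefSeq for the same genome build, and in 20 it was more than 1.5 times as long. A gene model with an expressed neighbour overlapping on its strand was found for 22 members, 17 of them tested. No source used here gives the strand setting of the counting, so 35 members with an expressed neighbour on the opposite strand may share reads as well, among them 6 of the 14 most abundant. Among the 77 tested members with no expressed neighbour overlapping on their strand, 76 were lower in mannose libraries, with a median log2 difference of -0.50. These 77 include col-159, whose overlapping neighbour col-160 was not tested. Among the 59 with none on either strand, 58 were lower, with a median of -0.53.

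A full switch was seen at III:10982139-10987873, on the minus strand, where the models of col-92, col-93 and col-94 overlap. In FPKM, col-93 had 1188, 0 and 0 in mannose libraries, against 0.0137, 1602 and 1855 in water libraries. In the same unit col-94 had 0.00929, 523 and 637 in mannose libraries, against 885, 0 and 0 in water libraries. Each library thus gave its reads to 1 of the 2 genes and next to none to the other, without regard to treatment. Taken alone, col-94 had the highest log2 difference of any tested member (2.86, SE 3.65) and col-93 the lowest (-3.77, SE 4.03), both with 95% intervals that span 0. In scaled reads (FPKM times listed length in kb), the 3 genes together had 1990, 1651 and 2020 in mannose libraries, against 2792, 2718 and 3190 in water libraries. The sum did not switch, its groups did not overlap, and the log2 difference of the summed locus was -0.62 (SE 0.13), with an unadjusted limma p of 0.00234. The third model, col-92, kept its own share, with 105, 93.6 and 120 FPKM in mannose libraries, against 158, 161 and 210 FPKM in water libraries. It had the smallest unadjusted limma p of the tested members, 0.00370, at a log2 difference of -0.72 (SE 0.16).

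A like pattern was seen for col-159 and col-160 at V:13198227-13202189. All libraries but 1 listed col-160 at 0 FPKM, while water 2 had 673 FPKM. In that library alone col-159 was low, at 407 FPKM, against 531, 441 and 558 FPKM in mannose libraries and 742 and 848 FPKM in water 1 and water 3. The scaled reads of both together were 1024, 850 and 1075 in mannose libraries, against 1430, 1549 and 1633 in water libraries. The groups of the sum were without overlap, at a log2 difference of -0.65 (SE 0.13) and an unadjusted limma p of 0.00188, where col-159 alone had -0.32 (SE 0.29).

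**Figure D5:**
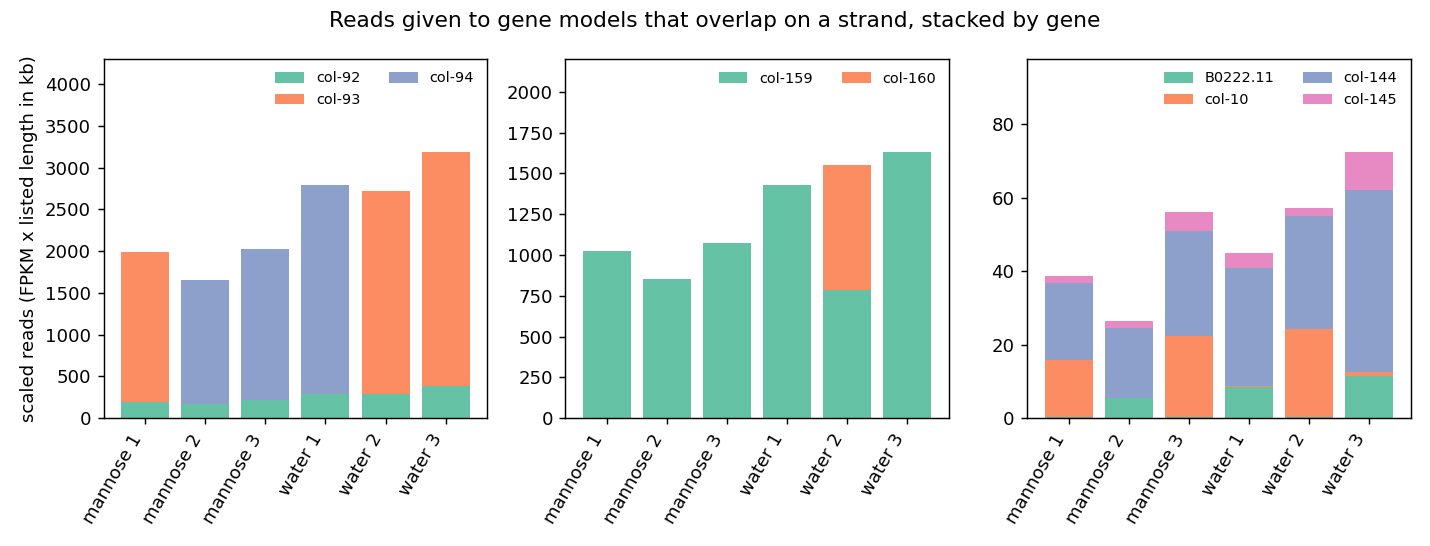
Scaled reads (FPKM times listed length in kb) given to gene models that overlap on a strand, stacked by gene, for 3 mannose libraries (left) and 3 water libraries (right) at the loci of col-92 to col-94, of col-159 and col-160, and of col-10, col-144, col-145 and B0222.11. Reads move between col-93 and col-94 across libraries of both groups, while the stacked sums of the first 2 loci are lower in each mannose library than in each water library.

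The gene col-10, one of those linked to long life, lies at V:9157139-9168189 among the overlapping models of col-144, col-145 and B0222.11. It had 7.86, 0.0243 and 11.3 FPKM in mannose libraries, against 0.0734, 12.1 and 0.617 FPKM in water libraries. The model B0222.11 held 5.33 to 11.42 scaled reads in mannose 2, water 1 and water 3, the libraries where col-10 was low, and at most 0.392 in the others. The 4 models together had 38.7, 26.4 and 55.9 scaled reads in mannose libraries, against 44.8, 57.3 and 72.5 in water libraries, with overlap. In the same locus col-144, whose transcript is used as a reporter that declines with age, had 11.3, 10.4 and 15.5 FPKM in mannose libraries, against 17.5, 16.7 and 27.0 FPKM in water libraries. The groups of col-144 did not overlap, and its log2 difference was -0.66 (SE 0.25).

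The tandem genes col-12 and col-13, whose proteins are nearly identical, share most of their listed spans and may share reads for both reasons. The FPKM of col-13 were 29.1, 21.9 and 32.2 in mannose libraries, against 42.4, 32.9 and 68.2 in water libraries. Those of col-12 were 16.4, 13.2 and 19.5 in mannose libraries, against 25.3, 15.4 and 45.2 in water libraries. Their summed scaled reads, 64.5, 50.1 and 74.1 in mannose libraries against 96.8, 66.5 and 165 in water libraries, overlapped between mannose 3 and water 2. The summed log2 difference was -0.71 (SE 0.35). The overlapping pair col-178 and col-179 showed no switch: col-179 had 765, 771 and 799 FPKM in mannose libraries, against 921, 926 and 1033 FPKM in water libraries, and both genes were without overlap between groups. Their summed scaled reads gave a log2 difference of -0.39 (SE 0.10).

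Only 5 tested members had a positive log2 difference, and none had groups without overlap. Beside col-94 and col-10 these were col-3, col-135 and col-83. The listed models of col-3 and col-83 share bases on their strand with the expressed models T28C6.7 (mean 1.34 FPKM) and F33A8.4 (44.7 FPKM). Of the 5, col-135 alone has no expressed neighbour overlapping on its strand. Whether reads were shared at col-3 and col-83 was not tested. The values of col-3 were 21.7, 17.5 and 24.2 FPKM in mannose libraries, against 0, 26.3 and 56.1 FPKM in water libraries, so its positive difference of 0.92 (SE 1.47) came with a single library listed at 0. Without water 1 the log2 difference of col-3 was -0.85. For col-135, a longer member with 660 residues, the values were 13.7, 8.82 and 8.77 FPKM in mannose libraries, against 9.71, 6.32 and 14.1 FPKM in water libraries, a log2 difference of 0.09 (SE 0.31). For col-83 they were 1.74, 1.61 and 0.293 FPKM in mannose libraries, against 1.48, 1.36 and 0.422 FPKM in water libraries, a log2 difference of 0.05 (SE 0.36). The member with the log2 difference nearest to 0, col-113, had 1.77, 1.65 and 1.68 FPKM in mannose libraries, against 1.72, 1.67 and 1.78 FPKM in water libraries. The 95% interval of its log2 difference ran between -0.26 and 0.23.

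Some col- genes that lie side by side differed widely in level. By RefSeq positions 50 members lie in 21 clusters in which the next col- gene is within 5 kb, 6 of them with 3 or more genes. In the cluster of col-79, col-39 and col-80 on chromosome II, col-79 had 0.371, 0.573 and 0.461 FPKM in mannose libraries, against 0.426, 0.550 and 0.815 FPKM in water libraries. In the next position col-39 had 18.7, 8.11 and 16.7 FPKM in mannose libraries, against 30.2, 21.0 and 49.4 FPKM in water libraries. Beyond it col-80 had 1739, 1475 and 1804 FPKM in mannose libraries, against 2212, 2124 and 2657 FPKM in water libraries. Thus the 3 genes span abundance classes while the order of the groups in col-39 and col-80 is the same. On chromosome X col-184 averaged 1321 ± 103 FPKM in mannose libraries and 1810 ± 246 FPKM in water libraries (SD, n = 3 each), while its neighbour col-183 was at 0 in all but water 1, with 0.0578 FPKM. The longest cluster, col-167 to col-171 on the same chromosome and 1 strand, ranged between 0 FPKM for col-171 and a mean of 13.1 FPKM for col-167, and its 4 tested genes were all lower in mannose libraries.

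Most members share the features of a cuticle collagen. In the annotation deposited with the values, 138 of the 156 members carry the Pfam domain of the nematode cuticle collagen N terminus and 118 the Pfam collagen repeat. Of the 18 without the N-terminal domain, 16 had a mean under 1 FPKM, and the other 2 were col-135 and col-83. Both were among the 5 members with a positive log2 difference, but at only 0.09 and 0.05, and both reversed sign in some alternatives. A link of the domain with the difference was not tested. Coded proteins ran between 154 and 740 residues with a median of 304, while the 14 most abundant members lay between 283 and 332. On chromosome III all 12 members had a mean of at least 1 FPKM, and on chromosome I 7 of 21, with col-62 the highest there at 22.3 FPKM.

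Of the 62 members not tested, 34 had a lower mean in mannose libraries and 20 a higher one, and the other 8 were at 0 throughout. Of the 62, 3 had a mean of at least 1 FPKM, namely col-160, col-127 and col-90. For col-127 the values were 0.894, 0.388 and 0.933 FPKM in mannose libraries, against 1.97, 0.820 and 2.87 FPKM in water libraries. For col-90 they were 0.628, 0.615 and 0.537 FPKM in mannose libraries, against 2.89, 0.571 and 1.51 FPKM in water libraries. In both, water 2 lay within the range of the mannose libraries.

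Cuticle collagens outside the col- family lay on both sides of 0, with more of them lower in mannose libraries. Of 20 with a value, named for the body shape or cuticle of their mutants, 14 were tested and 0 called by limma. Of the 14, 9 were lower and 5 higher in mannose libraries. Their median log2 difference was -0.54, and -0.20 without water 3, beside -0.51 and -0.29 over the tested col- genes. In dpy-13, a collagen gene whose mutants are short and stout, the values were 2.34, 2.96 and 3.07 FPKM in mannose libraries, against 6.42, 5.20 and 20.4 FPKM in water libraries. The groups did not overlap and water 3 stood above the rest. In dpy-14, another collagen gene, they were 4.35, 5.36 and 5.19 FPKM in mannose libraries, against 2.97, 2.04 and 1.67 FPKM in water libraries, without overlap and with mannose higher. Its log2 difference was 0.90 (SE 0.18), with an unadjusted limma p of 0.00237. Of the 14 tested genes of this list 6 had an unadjusted limma p under 0.05, dpy-14 with mannose higher and the others with mannose lower. Over all genes tested 2.04% were higher and 2.7% lower at that p. As in dpy-13, the groups of bli-6, dpy-4, dpy-5, rol-8 and sqt-3 did not overlap, with mannose lower, beside 5.31% of all genes tested. Only dpy-14 of the tested genes was without overlap and higher, beside 5.42%.

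Genes that make and cross-link collagen also lay on both sides of 0. Of 14 tested, 0 were called by limma, 5 were lower and 9 higher in mannose libraries, with a median log2 difference of 0.03. Over all genes tested 45.5% were lower. The prolyl 4-hydroxylase gene dpy-18 had 9.40, 5.67 and 5.44 FPKM in mannose libraries, against 5.87, 5.99 and 11.9 FPKM in water libraries, with mannose 1 and water 3 high. Its partner phy-2 had 10.7, 10.6 and 13.3 FPKM in mannose libraries, against 12.4, 11.5 and 9.79 FPKM in water libraries. The lysyl hydroxylase gene let-268, which acts on basement membrane collagen, had 4.61, 3.98 and 4.18 FPKM in mannose libraries, against 3.37, 2.13 and 2.89 FPKM in water libraries. It was the 1 gene of the 14 with an unadjusted limma p under 0.05, while 2.04% of all genes tested were higher in mannose libraries and 2.7% lower at that p. The difference between these lists and the col- genes was not tested.

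Lists for other tissues give the setting of these values. Of 11 hypodermal genes 8 were tested, with 3 lower and 5 higher in mannose libraries and a median log2 difference of 0.15. Of 14 genes of moulting and larval cuticle only 1, nas-37, passed the filter, and the summed level was 9.26 to 11.98 FPKM in mannose libraries and 7.70 to 10.2 FPKM in water libraries. Among 29 tested sperm genes, the msp genes that code for major sperm proteins, 28 were lower in mannose libraries with a median of -0.56, and -0.34 without water 3, and 29 were highest in water 3. The sperm genes summed to 1854, 987 and 1206 FPKM in mannose libraries, against 1625, 1705 and 2507 FPKM in water libraries, with overlap. Of 6 body wall muscle genes 5 were tested, and all 5 were lower in mannose libraries, with a median of -0.37, and -0.27 without water 3; 2 were highest in water 3. Their summed level was 676, 794 and 1032 FPKM in mannose libraries, against 997, 995 and 1058 FPKM in water libraries, with overlap. The sperm and muscle lists thus lay in the direction of the col- genes, and the sperm list shared the excess in water 3. The 3 basement membrane collagen genes were all lower (median -0.16, and -0.007 without water 3) and all highest in water 3. Of the 14 tested cuticle collagens outside the family, 9 were highest in water 3. Of 3 tested cuticlin genes 2 were lower and 1 higher, and all 3 were highest in water 3. Intestine genes had 4 lower and 3 higher (median -0.04), and embryo genes 0 lower and 3 higher. The part of any of these lists in the result was not tested. In each of these lists limma called 0 genes.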

How the data were processed

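Whole-worm RNA was measured in 6 libraries. Per the submitters' processing notes, reads went through cutadapt, FastQC and HISAT2 2.1.0 with WBcel235. No source used here names the counting tool, its strand setting or how reads on more than 1 gene were handled, and the labels' protocols name both TruSeq and VAHTS kits. The authors deposited FPKM values. This unit was inferred from the numbers, since value times gene length came out as whole reads (tolerance 0.05) for 95.0% to 95.8% of values of 20 reads or fewer. At 1 FPKM a gene of 1 kb rests on 38.0 to 49.4 reads.

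Genes with at least 1 FPKM in at least 3 libraries were tested with limma 3.58.1 (trend and robust, R 4.3.3) on log2(FPKM + 1) over the whole table, with Benjamini-Hochberg adjustment at 0.05. That scale understates the change of low genes. The script was tested on simulated data first. Scaled reads are FPKM times listed length in kb, so that models of different length can be summed. Pfam domains are those the authors deposited, protein lengths come from the Ensembl annotation and comparison spans from the RefSeq table, both of the build of the files. A neighbour counts as expressed if it was tested.

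The genes named are the 10 highest in mean FPKM, the 6 lower and up to 6 higher with the smallest p, 17 listed for a known role (col-6 was not analysed here), the 4 most abundant with an expressed overlapping neighbour, and the 3 genes most like each of the top 3. Others were chosen after their values were seen. The members and lists were chosen with earlier results of these data known. Alternatives covered pseudocount, filter, scaling, voom, replicate block, overlaps, left-out libraries and a term for mannose 1 and water 3.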

Additional observations from a re-analysis of the deposited data

How the results depend on the processing

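In all 17 alternatives 0 col- genes passed the threshold, and the median log2 difference of the tested members stayed between -0.70 (without water 1) and -0.28 (without mannose 1 and water 3). Leaving out 1 library at a time gave 78 to 91 of 94 members lower in mannose libraries, at a median of -0.70 to -0.29. At an unadjusted limma p under 0.05, 15 to 39 members were lower. The fewest, 15, came without mannose 2, beside 1.25% of all genes tested, and without water 3 there were 21, beside 2.38%. For the other left-out libraries and the replicate block that share was not computed, so their counts cannot be set side by side. With a mean of at least 10 FPKM, 47 of 50 members were lower. With no filter 123 of 148 were, at a median of -0.35, and by voom 90 of 94, at -0.58. A term for mannose 1 and water 3 left 89 lower and the median at -0.51, with 53 lower at an unadjusted p under 0.05, beside 6.05% of all genes tested. Scaling to TPM moved the median of all genes to 0.08, and that of the members to -0.45. The replicate block left 89 members lower and the median at -0.51, with 36 in place of 37 members at an unadjusted p under 0.05. The labels name no pairing of the samples. Deviations of same-numbered libraries from their group means correlated with r of -0.74, 0.24 and -0.71. With 3 libraries a group, and mannose 1 and water 3 set apart, these values cannot decide whether samples were paired. Summing overlapping members by locus, chosen after seeing the data, gave 83 of 86 lower at -0.49.

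Of 31 named members tested, 25 kept their sign in all alternatives. The other 6 reversed in at least 1 alternative. With 1 library left out in turn, the log2 difference of col-3 ran between -0.85 (without water 1) and 2.07, of col-135 between -0.18 (without water 2; -0.11 without mannose 1) and 0.34, and of col-83 between -0.20 (without water 3; -0.14 without mannose 1 and -0.11 without mannose 2) and 0.40. Likewise col-14 ran between -0.97 and 0.0125, and col-120 between -0.76 and 0.31, both reversed without water 3. Without mannose 1 and water 3 together, col-10 was at -0.0815, col-83 at -0.40, col-14 at 0.12 and col-120 at 0.45. For col-83 upper-quartile scaling gave -0.0135 and voom -0.091. The cause of these reversals was not tested. The alternative without near-identical pairs was not run, since no sequences were used here. The median tested member had 234 reads in its lowest library.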

Other observations

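The genes most like the leading members across the 6 libraries included some outside the family. They were picked as the highest correlations of the whole table, so high values come with the choice. By Pearson's correlation of log2(FPKM + 1) over the 6 libraries, given as a description of libraries that share treatment and processing, the genes most like col-140 were col-143 (0.989), faah-3 (0.987) and Y71F9B.13 (0.987). For col-119 they were col-80 (0.998), col-142 (0.996) and col-19 (0.994). For col-124 they were daf-22 (0.999), which codes for a thiolase of peroxisomal fatty acid breakdown, col-122 (0.997) and col-80 (0.996). The level of daf-22 was 67.3, 60.4 and 67.7 FPKM in mannose libraries, against 76.7, 78.0 and 87.4 FPKM in water libraries. Among the 20 genes most like each, 6 were col- genes for col-140, 8 for col-119 and 10 for col-124.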
